A study of Mus musculus with 15 samples.

Results

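The lysosomal hydrolases, their activators and membrane proteins, and the subunits of the vacuolar proton pump were followed in mouse MC3T3 cells, an osteoblast precursor line from calvaria (labelled clone 1b, so a single clone), on 15 single-colour oligonucleotide arrays. The genes were chosen by name: 36 listed genes, Atp6v1b2 among them, and every other gene whose symbol starts with Atp6v, 48 in all. Of these, 46 had a probe set of their own among 12422 probe sets (8252 named genes), Sgsh and Manba were not analysed here, and 41 passed the filter on low signal and were tested. The 5 removed were Ctsc, Ctss, Gla, Ppt1 and Cd68, with mean intensities between 4.47 and 17.3, while the lowest member kept, Neu1, had a mean of 46.2. Each gene was read from 1 probe set, the one with the highest mean.

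There were 5 groups, each of 3 arrays. One was kept in growth medium and harvested at day 0. Another pair received beta-glycerol phosphate (GP), which supplies phosphate for mineral, and was harvested at day 1 or day 3. The last pair received GP, ascorbic acid, which collagen-hydroxylating enzymes need, and BMP-2, a secreted bone inducer, for the same times, and is called treated. Ascorbic acid and BMP-2 never occurred apart, so their effects cannot be told apart, and both arms carried GP. Each group had preparations numbered 1, 2 and 3, and intensities are listed below in that order. The labels do not state that each preparation was its own culture, and p-values therefore reflect only the spread among these arrays, which could be technical.

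The lysosome is the acidic compartment in which cells break down proteins, glycans and lipids. Its hydrolases need the low pH made by the vacuolar ATPase, a pump with a membrane sector (V0, which carries the protons) and a peripheral sector (V1, which splits ATP). Many of these genes share promoter elements built around CACGTG, to which the TFEB family of transcription factors binds. In bone the pump and cathepsin K are best known from osteoclasts, and osteoblasts use lysosomes for turnover of organelles and of material taken up from outside.

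Intensities are linear units that had been scaled to nearly the same trimmed mean on every array before deposit. Preparation 3 had more low values, with 12.1 to 14.3% of probe sets at or below the floor of 2.8 units against 7.29 to 10% in the others, and the GP day 3 array of preparation 3 had an actin 3′ to 5′ ratio of 2.11 against 1 to 1.34 elsewhere. Of 7 osteoblast-line markers 6 passed the filter, with summed intensities of 19943 to 33554, in which Col1a1 and Col1a2 were the largest parts. Alpl was at 10.2 to 34.1 in medium and GP cultures, near the filter of 25.4 units, and at 61.8 to 971 in treated cultures. Ibsp did not pass. Of 12 macrophage markers 3 passed (Cd14, Csf1r and Laptm5), with list sums of 447 to 1154. Cd14 was the largest part of these sums and made up 983.5 of the highest. Ptprc was at or below the floor on 13 arrays and Cd53 on all 15. Of 5 osteoclast markers 2 passed (Mmp9 and Nfatc1), with list sums of 84.4 to 639; Acp5, Calcr and Itgb3 did not. In RNA from whole cultures, fewer cells of a type and less RNA per cell cannot be told apart.

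**Figure D1:**
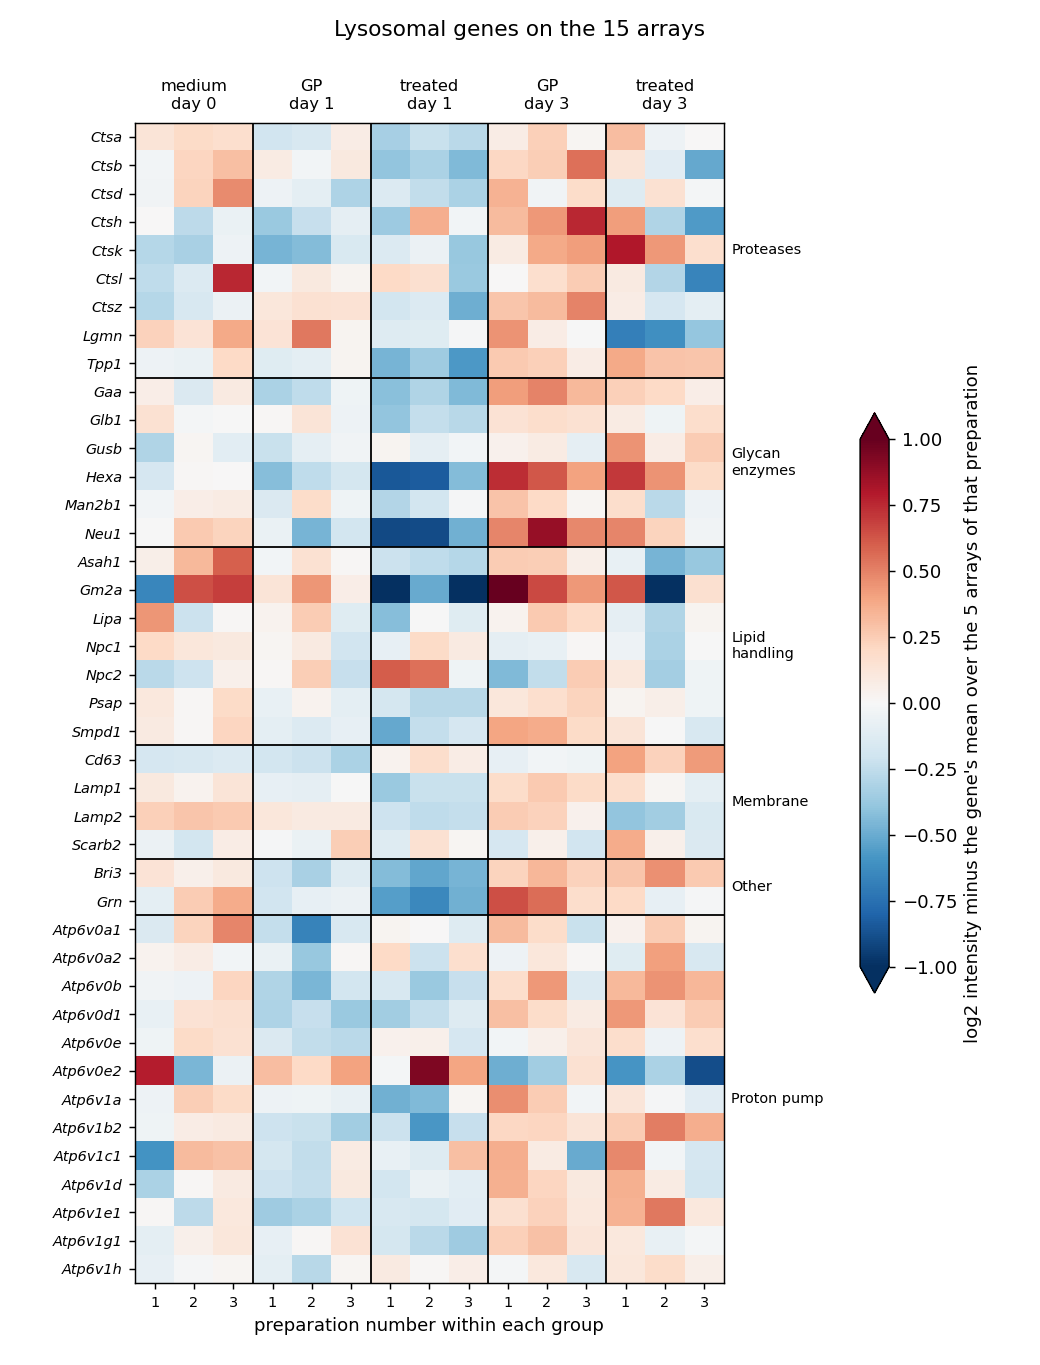
Each cell is 1 gene on 1 array, coloured by log2 intensity minus that gene's mean over the 5 arrays of the same preparation number, with genes grouped by role and arrays by group. The median over the 41 genes lay between -0.22 and -0.18 on the 3 treated day 1 arrays and between 0.12 and 0.23 on the 3 GP day 3 arrays.

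The clearest pattern among the lysosomal genes was one of time. Between day 1 and day 3 in GP alone, 36 of the 41 genes had a positive change (49.4% of all tested probe sets did), with a median log2 change of 0.26 against -0.00 over all tested probe sets. Hexa, Gaa, Atp6v0d1 and Bri3 rose, and 0 genes fell, in limma with the preparation number as a block and Benjamini-Hochberg adjustment over 7454 probe sets. Those 4 were 9.76% of the genes tested, beside 0.443% of all tested probe sets that rose and 1.41% that fell. Of the 41, 26 (63.4%) were higher in all 3 preparations, against 17.8% of all probe sets, and 14 (34.1%) had day 3 values that lay wholly above the day 1 values, against 5.39%.

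The same interval in treated cultures gave 32 of 41 positive changes (48.6% of all probe sets), with a median of 0.26 against -0.01 over all tested probe sets. Hexa, Neu1, Bri3, Tpp1, Atp6v1b2, Ctsk, Atp6v0b, Grn, Gaa and Atp6v0d1 rose and 0 fell, so 24.4% of the members rose beside a background of 2.12% higher (1.84% lower). Of the 41, 21 (51.2%, against 17.4% of all probe sets) were higher in all 3 preparations, and 11 (26.8%, against 6.61%) had groups that did not overlap. The 2 time comparisons use no array in common, although they share the preparation numbers. All arrays were fitted together, so both also share the same estimate of spread for each gene. The calls of both arms are therefore not independent. All 4 genes called in GP were among the 10 called in treated cultures (4 of 4 and 4 of 10), and 31 genes had positive changes in both arms, against 29.6% of all probe sets. Of these, 17 were higher in all 3 preparations of both arms, against 5.78% of all probe sets. Across the 41 genes the day 3 against day 1 changes of both arms had a Pearson r of 0.812, against 0.332 across all tested probe sets; genes are not independent replicates.

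Hexa, the alpha subunit of beta-hexosaminidase, which trims glycolipids and glycans, had the largest changes that passed the test. Its intensities were 275, 413 and 321 in GP at day 1 and 616, 761 and 479.9 at day 3. In treated cultures they were 206, 277 and 268 at day 1 and 604, 676 and 415 at day 3. Every day 3 value lay above every day 1 value of either arm. The log2 changes were 0.87 ± 0.16 in GP (SE; adjusted p = 0.00948) and 1.15 ± 0.16 in treated cultures (adjusted p = 0.0016). The day 0 values of 330.5, 497 and 364 lay between the day 1 and day 3 values of the same preparation in both arms.

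Of the other glycan-degrading enzymes, Gaa, the acid alpha-glucosidase that breaks down lysosomal glycogen, stood at 1025, 1099 and 1038 in GP at day 1 and 1704, 1842 and 1340.5 at day 3. In treated cultures Gaa went from 954, 1063 and 786 to 1505, 1498 and 1119.6. Its values did not overlap between the days in either arm, with log2 changes of 0.62 ± 0.11 (adjusted p = 0.00662) and 0.55 ± 0.11 (adjusted p = 0.0116). Neu1, the lysosomal sialidase, was dim, at 24.3, 21.8 and 32.1 in treated cultures at day 1 and 63.7, 47.4 and 43.8 at day 3, and rose by 0.99 ± 0.25 (adjusted p = 0.0436). With the floor at the 50th percentile of all values the Neu1 change was 0.18 (adjusted p = 0.502). In GP alone Neu1 had a change of nearly the same size, 0.85 ± 0.25, that did not pass (adjusted p = 0.121). All 6 tested glycan-degrading enzymes had positive changes in both arms, with medians of 0.39 and 0.46.

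Among the proteases, Tpp1, the tripeptidyl peptidase that removes tripeptides from protein ends, was at 460.2, 529 and 381 in treated cultures at day 1 and 826, 822 and 685 at day 3. The 2 sets of values were well apart, and Tpp1 rose by 0.78 ± 0.11 (adjusted p = 0.00188), while in GP the change was 0.26 ± 0.11 (adjusted p = 0.326). Ctsk, cathepsin K, the collagen-degrading protease of osteoclasts, was at 268, 308 and 351 and then 512, 432 and 513 in treated cultures. The Ctsk groups did not overlap, and the rise of 0.66 ± 0.17 passed narrowly (adjusted p = 0.0492). In GP, Ctsk went from 214, 237 and 409.6 to 312, 416 and 609, overlapping groups with a change of 0.64 ± 0.17 (adjusted p = 0.0821). Ctsd, the aspartic protease cathepsin D, had changes of 0.32 in GP and 0.23 in treated cultures (adjusted p = 0.35 and 0.459), higher in all 3 preparations of both arms.

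Bri3, a small transmembrane protein found on lysosomes, had closely grouped values. They were 814, 822 and 793 in GP at day 1, 1099, 1294 and 1014 in GP at day 3, 696, 719 and 626 in treated cultures at day 1 and 1137, 1409 and 1038 at day 3. No day 1 value reached any day 3 value, and the changes were 0.48 ± 0.09 (adjusted p = 0.0156) and 0.80 ± 0.09 (adjusted p = 0.000794). Grn, progranulin, a secreted protein that is cut into granulins in the lysosome, was at 482, 489.7 and 382 and then 810.0, 723 and 531 in treated cultures. These groups did not overlap, and Grn rose by 0.60 ± 0.15 (adjusted p = 0.0413), while in GP the groups overlapped with a change of 0.57 ± 0.15 (adjusted p = 0.0741).

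**Figure D2:**
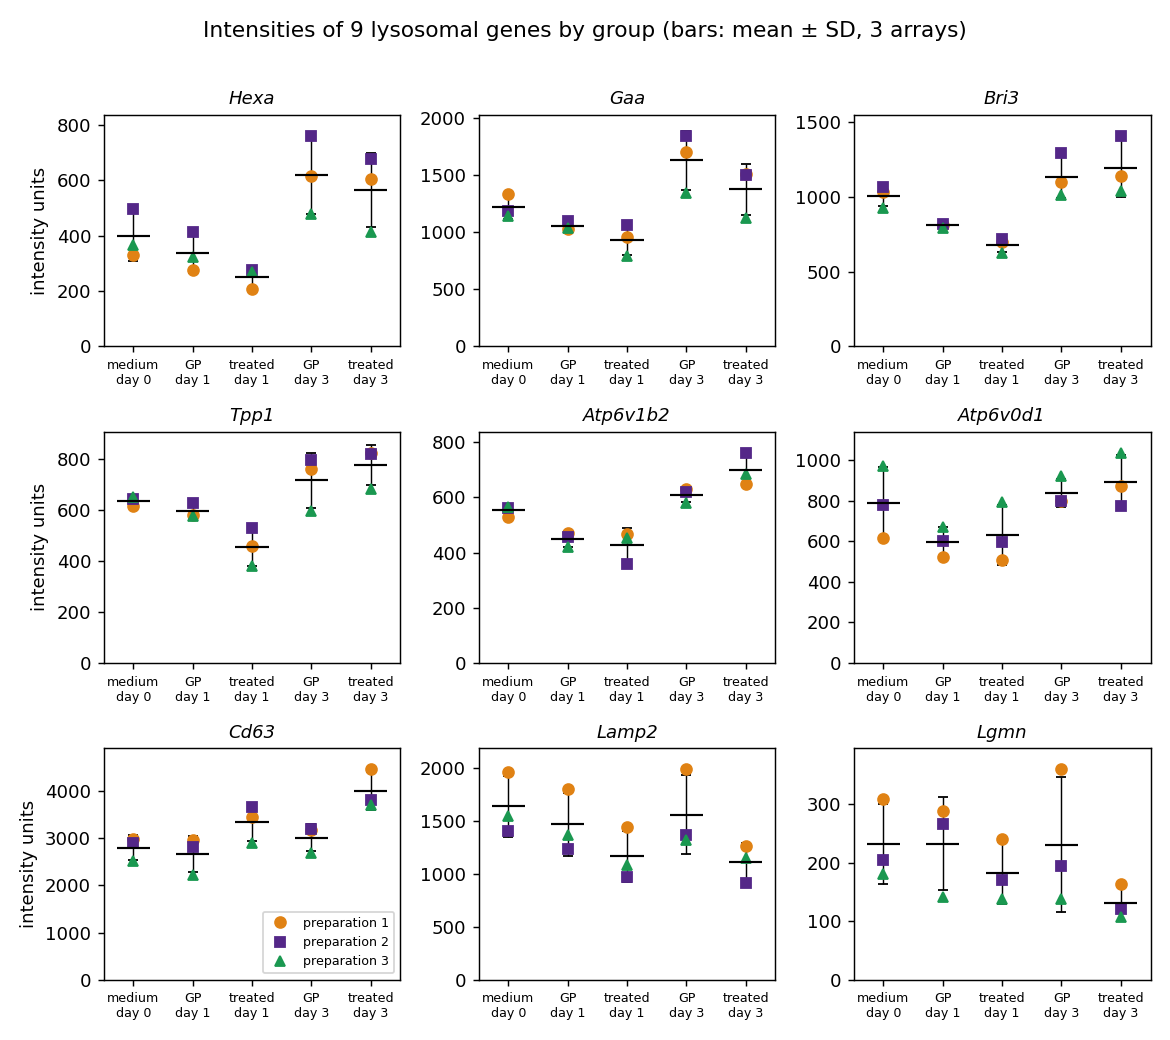
Intensity (linear units) of 9 genes in the 5 groups, with 1 symbol for each preparation number and bars for the mean ± SD of 3 arrays. For Hexa, Gaa and Bri3 every day 3 value of an arm lies above every day 1 value of that arm, while for Cd63 the 3 treated day 3 values lie above all others.

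Most proton pump genes had positive changes over time too, 12 of 13 in GP and 11 in treated cultures, at medians of 0.29 and 0.20. Atp6v1b2, a B subunit of the V1 sector that takes part in ATP binding, was at 469, 357 and 455 in treated cultures at day 1 and 649, 763 and 684 at day 3. The groups were far apart, and Atp6v1b2 rose by 0.72 ± 0.12 (adjusted p = 0.00517); the change in GP was 0.44 ± 0.12 (adjusted p = 0.0906), also without overlap. In the V0 sector, Atp6v0b, a subunit of the proteolipid ring, went from 429, 380.2 and 372 to 603, 671 and 549 in treated cultures without overlap and rose by 0.62 ± 0.15 (adjusted p = 0.0307). Atp6v0d1, the subunit that links the ring to the central stalk, was at 521, 601 and 672 in GP at day 1 and 798, 798 and 921 at day 3, and rose by 0.49 ± 0.12 (adjusted p = 0.0479). In treated cultures Atp6v0d1 rose by 0.51 ± 0.12 (adjusted p = 0.0251), with groups that overlapped, preparation 3 being highest on both days. Atp6v1e1, a stalk subunit of the V1 sector, had changes of 0.46 and 0.48 without overlap in either arm (adjusted p = 0.109 and 0.0593).

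The remaining pump genes did not pass in either arm. Their changes in GP and in treated cultures were 0.45 and 0.14 for Atp6v0a1 and 0.17 and -0.01 for Atp6v0a2, both a subunits of V0. For Atp6v0e they were 0.27 and 0.12, for Atp6v1a, the catalytic subunit, 0.29 and 0.30, and for Atp6v1d 0.34 and 0.20. Atp6v1g1 (0.19 and 0.27), Atp6v1h (0.10 and 0.06) and Atp6v1c1 (0.10 and 0.06) had smaller or less even changes; the Atp6v1c1 probe set carries the manufacturer's mark of a relaxed probe design. Atp6v0e2, a second isoform of the e subunit, ran the other way: it was at 177, 349 and 229.7 in treated cultures at day 1 and 119, 147 and 94.4 at day 3. These groups did not overlap, and the change of -1.03 ± 0.31 did not pass (adjusted p = 0.0877).

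The lipid-handling genes had median time changes of 0.14 in GP and 0.06 in treated cultures, the membrane proteins of 0.13 and 0.17, and 0 of these 11 genes passed in limma. At an unadjusted p under 0.05 with the block there were 4 in GP, all higher, and 5 in treated cultures, Npc2 among them being lower. The shares over all probe sets, in either direction, were 13.4% and 16.7%. The most positive changes were those of Gm2a, the activator that presents ganglioside to beta-hexosaminidase, at 0.60 ± 0.48 and 0.94 ± 0.48 (adjusted p = 0.666 and 0.355). Smpd1, acid sphingomyelinase, had changes of 0.43 ± 0.12 and 0.29 ± 0.12 (adjusted p = 0.0979 and 0.215), without overlap in GP; both genes were singled out after their values were seen. Psap, the precursor of the saposins that activate lipid hydrolases, had changes of 0.21 in GP and 0.26 in treated cultures (adjusted p = 0.288 and 0.122). Lamp1, the abundant lysosomal membrane glycoprotein, was at 4170.4, 4894 and 4676 and then 5005, 6256 and 5345 in GP, and at 3401, 4449 and 4014 and then 4988, 5271 and 4374 in treated cultures. All 3 preparations were higher at day 3 in both arms, by 0.27 and 0.31 (adjusted p = 0.173 and 0.0759). Lamp2, its paralog, had changes of 0.08 and -0.06, with 95% intervals of -0.12 to 0.28 and -0.26 to 0.14. Besides Atp6v0e2, the largest negative changes in treated cultures were those of Lgmn (-0.47) and of Npc2, a cholesterol-binding protein of the lysosomal lumen (-0.46), neither of which passed (adjusted p = 0.153 and 0.289); both were singled out after their values were seen.

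These calls depend on the block and on single arrays. Without the preparation block 0 of the 41 genes passed in GP and 1, Bri3, in treated cultures (adjusted p = 0.0352), beside 0.0402% and 0.0805% of all probe sets that were higher. At an unadjusted p under 0.05 without the block 12 genes were higher in each arm (2.76% and 4.51% of all probe sets), and signs and medians do not depend on the block. The GP count fell from 4 to 0 without the day 1 array of preparation 1 or the day 3 array of preparation 2, to 1 without the day 1 array of preparation 2 or the day 3 array of preparation 1, and to 0 without the whole of preparation 1 or of preparation 2. The treated count fell from 10 to 4 without the day 1 array of preparation 1. It fell to 5 without the day 1 array of preparation 2 or the day 3 array of preparation 1 or 2. Without preparation 1 it was 3, and without preparation 2 it was 0. With all arrays, 1.85% of the 7454 probe sets passed in GP and 3.96% in treated cultures. In the fits just named, between 29 and 77 probe sets passed in GP and between 0 and 206 in treated cultures. Without preparation 2, 0 of the 7454 passed in treated cultures, and without preparation 1, 72 did. The falls were therefore not confined to the members. With several probe sets of a gene averaged, Atp6v1b2 (0.46, adjusted p = 0.202) and Grn no longer passed in treated cultures. Of 11 alternatives that left out no array, 8 lost the call of Ctsk in treated cultures. Those of Grn in treated cultures and of Atp6v0d1 in GP were each lost in 7, and that of Bri3 in treated cultures in 0.

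Mmp9, a matrix protease and 1 of the osteoclast markers, also had higher values at day 3 in every preparation of GP, 211, 79.2 and 5.5 and then 548, 169.7 and 48.5, a change of 1.87 ± 0.51 (adjusted p = 0.0907). In treated cultures it went from 73.0, 9 and 6.7 to 172, 14.6 and 5.6, a change of 0.56 ± 0.51 (adjusted p = 0.648). Nfatc1, the other osteoclast marker tested, had changes of the opposite sign, -0.12 in GP and -0.27 in treated cultures. The summed osteoclast markers were 126 to 268 at day 1 and 159 to 639 at day 3 in GP, and 123 to 161 and 84.4 to 253 in treated cultures. Mmp9 is part of these sums and made up 548 of the highest, 639. The summed macrophage markers were 511 to 1154 and 477 to 829 in GP, and 502 to 1105 and 447 to 736 in treated cultures, and the part of these markers in the time changes was not tested.

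**Figure D3:**
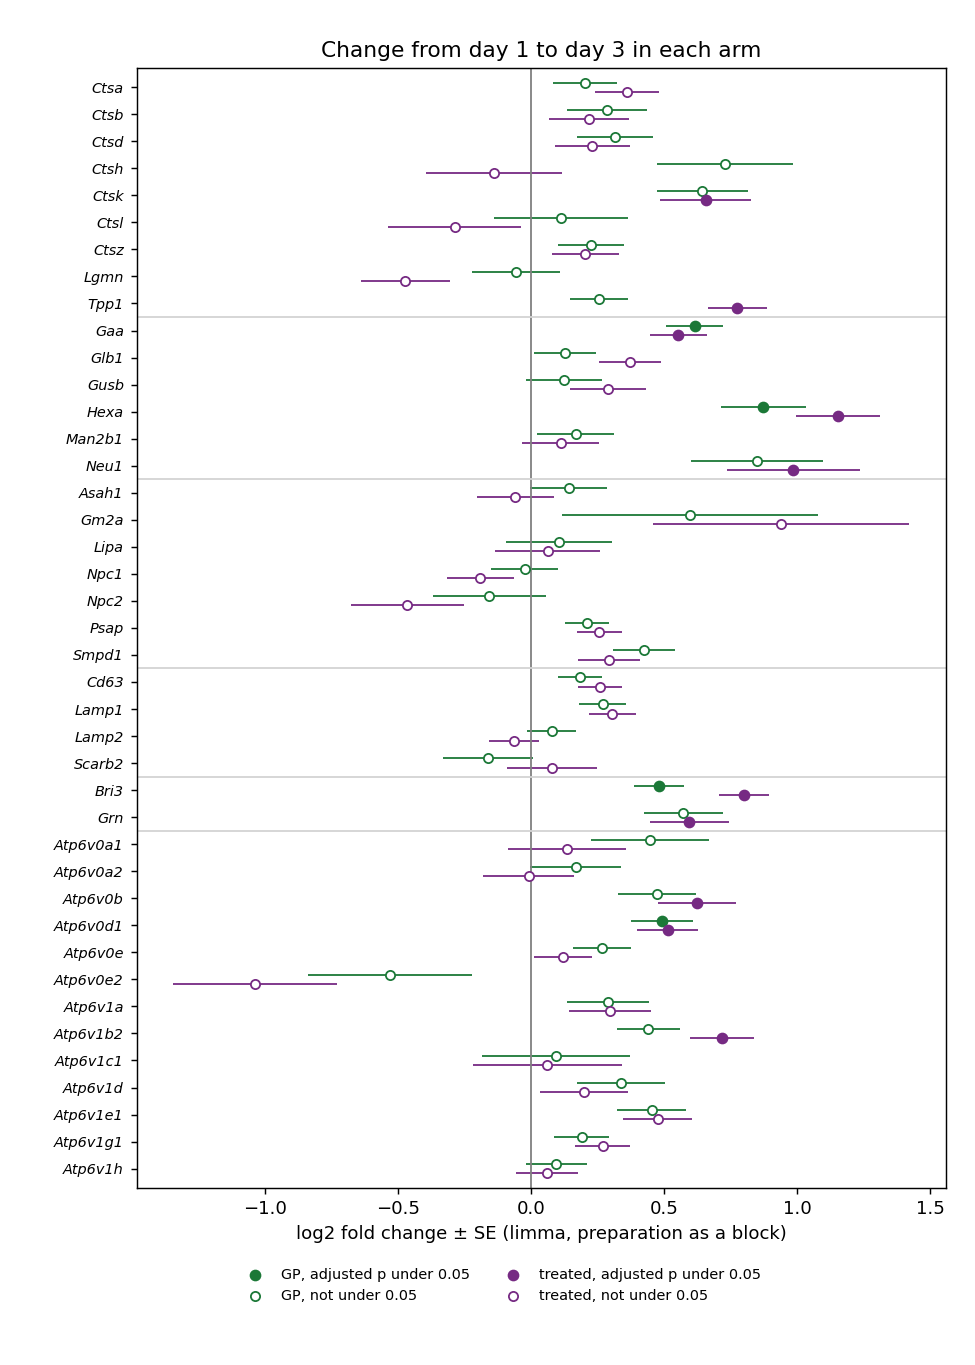
Log2 fold change ± SE of each of the 41 genes from day 1 to day 3, in GP and in treated cultures, with filled points for an adjusted p under 0.05 and genes grouped by role. Nearly all points lie to the right of 0, 36 in GP and 32 in treated cultures, with Atp6v0e2 farthest to the left in both arms.

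Because many members moved together over time, their promoters were searched for CACGTG, a palindrome that reads the same on both strands, in RefSeq windows of 300 bases (250 before the start site and 50 after; mouse assembly GRCm38.p6). Of the 46 genes 37 had a window, and 13 of these (35.1%) held CACGTG, against 11.4% of 6577 genes on the array and 8.09% of all 27025 genes with a window. The longer forms GTCACGTG and TCACGTGA, each of which contains CACGTG, occurred on either strand in 24.3% and 16.2% of the 37, against 4.61% and 1.92% of genes on the array and 2.55% and 1.12% of all genes. Lamp1 held 4 copies, and Atp6v0b, Ctsd, Ctsa and Gla held 2 each. Lamp1, Atp6v0b and Ctsd are shown to let the spacing be seen, the tie at 2 copies being settled by the smallest p in treated against GP cultures at day 3. The 250 bases before the start site are printed 5′ to 3′ on the gene's strand, with CACGTG in capitals.
Lamp1, chr8:13158911-13159160, plus strand: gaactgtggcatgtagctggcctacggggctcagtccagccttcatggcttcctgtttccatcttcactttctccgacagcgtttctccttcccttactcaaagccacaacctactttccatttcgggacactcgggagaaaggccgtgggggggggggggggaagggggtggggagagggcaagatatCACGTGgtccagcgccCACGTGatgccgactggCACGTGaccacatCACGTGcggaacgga
Atp6v0b, chr4:117887330-117887579, minus strand: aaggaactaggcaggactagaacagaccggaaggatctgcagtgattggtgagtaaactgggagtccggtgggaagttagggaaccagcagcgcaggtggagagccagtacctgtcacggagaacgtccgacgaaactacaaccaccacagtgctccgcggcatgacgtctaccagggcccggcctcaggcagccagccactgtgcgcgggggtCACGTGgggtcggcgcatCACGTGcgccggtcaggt
Ctsd, chr7:142387828-142388077, minus strand: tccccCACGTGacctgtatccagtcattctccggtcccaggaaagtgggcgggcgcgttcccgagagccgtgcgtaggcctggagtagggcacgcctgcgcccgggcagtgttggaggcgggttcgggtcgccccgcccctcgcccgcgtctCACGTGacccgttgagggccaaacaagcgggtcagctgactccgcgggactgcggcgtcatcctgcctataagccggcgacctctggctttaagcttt
In Lamp1 the copies begin 61, 45, 28 and 15 bases before the start site, in Atp6v0b 36 and 18 bases and in Ctsd 245 and 98 bases. A match is only a description of these letters. The 12 tested genes that held it had medians of 0.28 in GP and 0.34 in treated cultures, against 0.24 and 0.26 for the 20 that did not. Of the 9 genes with a window that rose in treated cultures, 4 held it (Atp6v0b, Atp6v0d1, Bri3 and Gaa) and 5 did not.

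The step from growth medium at day 0 to GP at day 1, in which medium and time changed together, ran opposite to the later one. Of the 41 genes 35 had a negative change (49.7% of all probe sets did), with a median of -0.14 against 0.00 over all tested probe sets, and 22 (53.7%) were lower in all 3 preparations, against 16.1% of all probe sets. In 8 genes (19.5%, against 3.53%) the GP values lay wholly below the day 0 values. In limma 0 of the 41 genes passed, with or without the block, beside 0.711% of all tested probe sets that rose and 0.0134% that fell; without the block 0.228% of all probe sets passed. At an unadjusted p under 0.05 there were 8 genes with the block (7.61% of all probe sets) and 4 without (3.47%). Bri3 came nearest, at 1034, 1065 and 927 in medium against 814, 822 and 793 in GP, a change of -0.32 ± 0.09 (adjusted p = 0.25). Among the pump genes, Atp6v0b was at 468, 473 and 505 and then 389, 357 and 384, without overlap, with a change of -0.36 ± 0.15 (adjusted p = 0.576). The rise from day 1 to day 3 in GP and this step share the GP day 1 arrays. As a description chosen after these values were seen, 15 genes (36.6%) were higher at GP day 3 than at day 0 in all 3 preparations, against 15.5% of all probe sets, and 9 (22%) were higher at treated day 3 than at day 0, against 21%.

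With ascorbic acid and BMP-2, Cd63 was higher than in GP alone on both days, and 5 genes were lower at day 3. At day 1 Cd63, a tetraspanin of late endosomes and lysosomes, was higher in treated than in GP cultures and 0 genes were lower, so 2.44% of the members rose beside 2.08% of all tested probe sets (2.9% fell). At day 3 Cd63 was again higher and Lgmn, Ctsb, Asah1, Lamp2 and Ctsz were lower: 2.44% higher and 12.2% lower, beside 7.04% and 7.14% of all probe sets, or 14.6% against 14.2% in either direction. Lower values in all 3 preparations were found for 20 genes at day 1 (48.8%, against 22.1% of all probe sets) and 17 at day 3 (41.5%, against 22%). The median change was -0.16 at day 1 and -0.14 at day 3, against -0.0036 and 0.0006 over all tested probe sets. At day 1 the members' median was -0.084 with the 50th percentile as the floor, -0.094 with quantile normalization and -0.078 with probe sets averaged. At day 3 it was -0.086 with median scaling and -0.076 with probe sets averaged. Median scaling moved the day 3 median of all probe sets upward too, to 0.053. No difference between the day 3 and day 1 effects passed for any member or for any of the 7454 probe sets in limma, a background of 0%. At an unadjusted p under 0.05 there were 3 members with the block (8.81% of all probe sets) and 2 without (3.7%).

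Cd63 stood at 2965, 2808 and 2223 in GP and 3447, 3666 and 2903 in treated cultures at day 1, and at 3172, 3188 and 2685 and 4458, 3817 and 3707 at day 3. Each treated value was above the GP value of the same preparation, and the groups overlapped at day 1 but not at day 3. The log2 changes were 0.33 ± 0.08 (adjusted p = 0.0373) and 0.41 ± 0.08 (adjusted p = 0.00605). Lamp2, needed for fusion of autophagosomes with lysosomes, was at 1987, 1366 and 1322 in GP and 1266, 915 and 1153 in treated cultures at day 3. All treated values lay below all GP values, and Lamp2 fell by 0.48 ± 0.09 (adjusted p = 0.00446). At day 1 the Lamp2 groups overlapped, with a change of -0.33 ± 0.09 (adjusted p = 0.0555), and its second probe set gave -0.53 and -0.56 on the 2 days (adjusted p = 0.207 and 0.129). Lamp1 had changes of -0.22 and -0.18, with 95% intervals of -0.41 to -0.03 and -0.37 to 0.01, and did not pass (adjusted p = 0.18 and 0.209).

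Of the 9 tested proteases 3 fell at day 3, beside 7.14% of all probe sets. Lgmn, legumain, which cuts after asparagine and processes cathepsins, was at 359, 195 and 139 in GP and 164, 121 and 106 in treated cultures. The groups overlapped, preparation 1 being highest in both, and every treated value was below the GP value of its own preparation. Lgmn fell by 0.73 ± 0.17 (adjusted p = 0.0102), and at day 1 the change was -0.32 ± 0.17 (adjusted p = 0.32). Ctsb, the cysteine protease cathepsin B, was at 2240.4, 2492 and 2078 and 2114, 1949 and 994, with preparation 3 lowest in treated cultures and a small step in preparation 1. Ctsb fell by 0.50 ± 0.15 (adjusted p = 0.0405), and 2 of its 3 further probe sets also fell, with changes of -1.12 and -0.98 (adjusted p = 0.0494 and 0.0132), while the other was below the filter. The change of Ctsb was -0.22 without preparation 3, -0.28 without the treated array of preparation 3 and -0.87 with probe sets averaged, and its call was lost in 7 of 11 alternatives. Ctsz, cathepsin Z, a carboxypeptidase, was at 478, 489 and 481 and 413, 351 and 318 without overlap and fell by 0.43 ± 0.12 (adjusted p = 0.0353). The Ctsz call was lost in 5 of 11 alternatives and kept in 1 of 9 fits with an array or preparation left out. Cst3, cystatin C, a secreted inhibitor of cysteine cathepsins that is not among the members, also fell, from 3162, 3481 and 2953 in GP to 2085, 2164 and 1963, by 0.63 ± 0.11 (adjusted p = 0.00215).

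The proteases that did not pass at day 3 ranged widely. Ctsk was at 312, 416 and 609 in GP and 512, 432 and 513 in treated cultures, higher in preparations 1 and 2 and lower in preparation 3, a change of 0.17 ± 0.17 with a 95% interval of -0.19 to 0.54. Ctsd had a change of -0.16 with an interval of -0.47 to 0.14. Ctsl, cathepsin L, was at 877, 901 and 654 and 928, 655 and 345, slightly higher in preparation 1 and lower in the others, a change of -0.43 ± 0.25 (adjusted p = 0.296). At day 1 the changes of Ctsk, Ctsd, Ctsl and Ctsb were 0.16, -0.08, -0.03 and -0.43, none past the threshold; that of Ctsl was 0.0035 with median scaling.

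Asah1, acid ceramidase, was the single lipid-handling gene of 7 to pass at day 3. It was at 601, 623 and 581 in GP and 477, 379.5 and 428 in treated cultures, well apart, and fell by 0.50 ± 0.14 (adjusted p = 0.0344). The Asah1 call was lost in 5 of 11 alternatives and kept in 2 of 9 fits with an array or preparation left out. Psap had changes of -0.20 and -0.15 (adjusted p = 0.201 and 0.274), and its 2 other tested probe sets disagreed in sign with each other on both days. Gm2a had the most negative changes on both days, -1.31 ± 0.48 and -0.97 ± 0.48, and did not pass (adjusted p = 0.135 and 0.217); it was singled out after its values were seen. Grn was at 1103, 1130.7 and 605 in GP and 810.0, 723 and 531 in treated cultures at day 3, a change of -0.43 ± 0.15 (adjusted p = 0.0742), and -0.45 ± 0.15 at day 1 (adjusted p = 0.1), lower in all 3 preparations both times. None of the 6 glycan-degrading enzymes passed on either day, with medians of -0.26 and -0.18.

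None of the 13 proton pump genes passed on either day. Their median change was 0.13 at day 1, with 10 positive, and 0.05 at day 3, with 9 positive, while the medians of the protease, glycan and lipid groups were negative on both days; the order of these medians was not tested, and the pump's medians were positive under quantile normalization and median scaling too. At day 3 the pump changes ran from -0.37 for Atp6v0e2 to 0.21 for Atp6v0b, through -0.23 for Atp6v1a, -0.21 for Atp6v1g1, -0.14 for Atp6v1d, 0.01 for Atp6v0a1 and 0.02 for Atp6v0a2. Further tested probe sets gave 0.18 and -0.07 for Atp6v1a, 0.14 and 0.48 for Atp6v0a2 and 0.44 for Atp6v1b2. None of these passed, the smallest limma adjusted p being 0.104. Atp6v1b2 was at 631, 619.9 and 582 in GP and 649, 763 and 684 in treated cultures, without overlap, a change of 0.19 ± 0.12 with an interval of -0.07 to 0.45 (adjusted p = 0.337). The other changes at day 3 were 0.09 for Atp6v0d1, 0.05 for Atp6v0e, 0.11 for Atp6v1c1, 0.16 for Atp6v1e1 and 0.14 for Atp6v1h. At day 1 the changes ran from -0.29 for Atp6v1g1 to 0.32 for Atp6v0a1; that of Atp6v1d, 0.00, was negative after quantile normalization, and that of Atp6v1b2, -0.08, was positive with probe sets averaged.

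**Figure D4:**
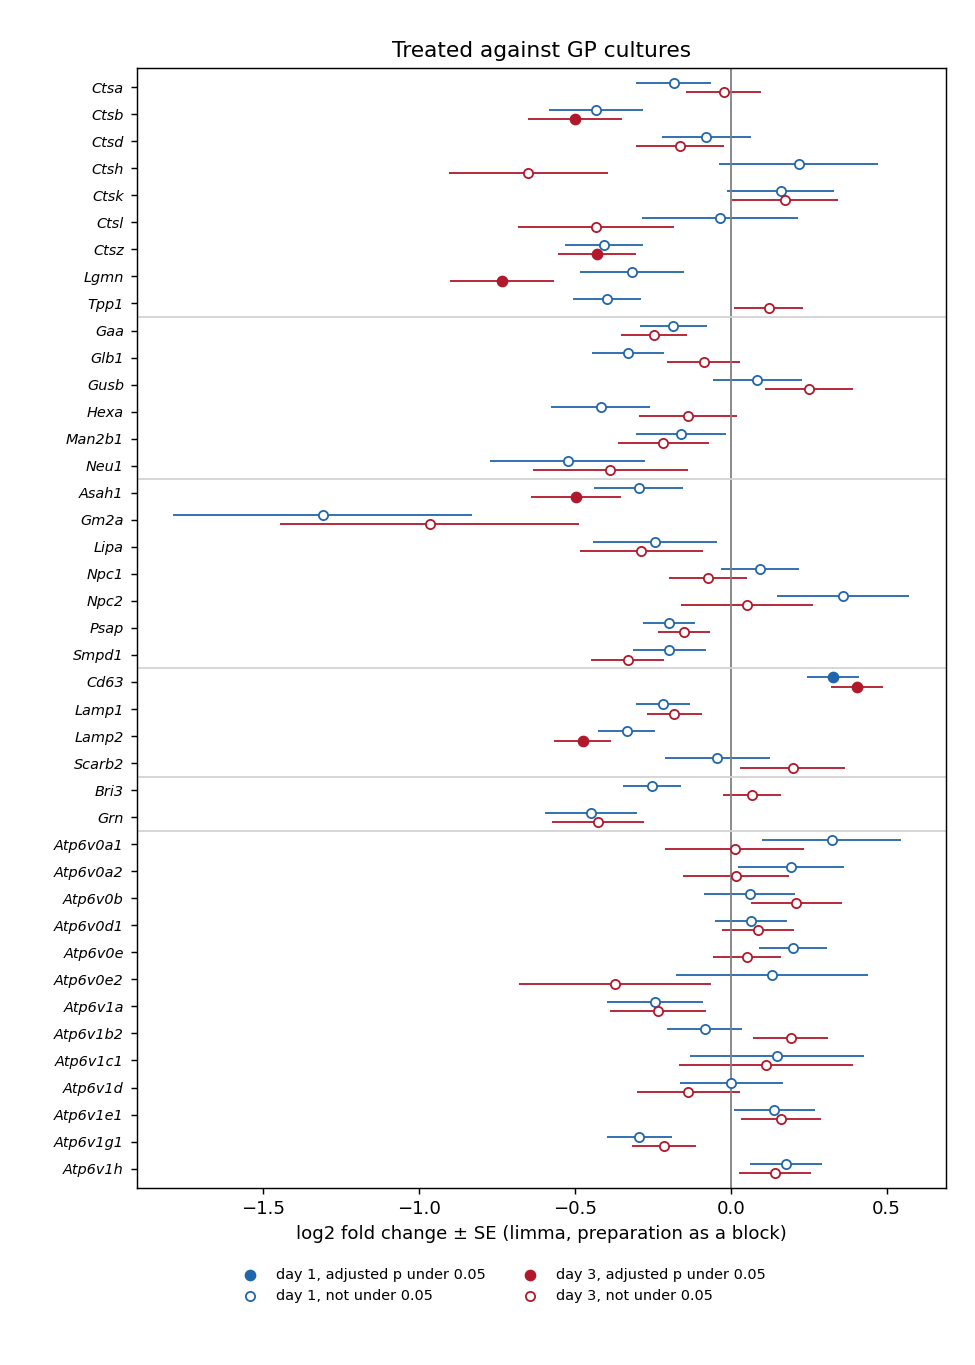
Log2 fold change ± SE of treated against GP cultures for the 41 genes at day 1 and day 3, with filled points for an adjusted p under 0.05 and genes grouped by role. Cd63 is filled to the right of 0 on both days, Lgmn, Ctsb, Ctsz, Asah1 and Lamp2 are filled to the left at day 3, and no pump gene is filled.

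The 6 calls at day 3 and the call at day 1 became 0 without the preparation block, where 4.28% of all probe sets passed at day 3 and 0.939% at day 1. At an unadjusted p under 0.05 without the block there were 5 genes on each day, beside 16.9% and 11.4% of all probe sets. The day 1 call was lost without any 1 of the 6 arrays compared, where calls over all probe sets fell from 371 to between 106 and 246. At day 3 the count fell to 2 without the GP array of preparation 1, and to 3 without the GP array of preparation 2 or the treated array of preparation 2 or 3. It was 2 without preparation 1, 0 without preparation 2 and 4 without preparation 3. Calls over all probe sets fell from 1057 to between 263 and 851 in these day 3 fits. Mmp9 moved with these falls, from 548, 169.7 and 48.5 in GP to 172, 14.6 and 5.6 in treated cultures at day 3. Its change was -2.77 ± 0.51 (limma adjusted p = 0.0031, and 0.401 without the block). Nfatc1, the other osteoclast marker tested, went the other way, at 38.2, 46.1 and 79.7 in GP and 59.1, 57.8 and 88.2 in treated cultures. The Nfatc1 change was 0.37. The summed osteoclast markers, Mmp9 included, were 159 to 639 in GP and 84.4 to 253 in treated cultures. The macrophage markers were 477 to 829 and 447 to 736, and the part of both lists in the results was not tested.

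Genes around the lysosome were described from lists of other lysosomal genes, sorting and retromer genes, regulators, autophagy genes and inhibitors of cysteine proteases. Their counts stand beside 7.14% of all probe sets that fell and 7.04% that rose at day 3, and 2.9% and 2.08% at day 1, and nothing is read from a count near those shares. At day 3, 2 of 19 other lysosomal genes fell in treated cultures, Naglu (-0.61, adjusted p = 0.00538) and Arsa (-0.52, adjusted p = 0.0378), which degrade heparan sulphate and sulphatide. At day 1, 1 of the 19 fell, Laptm4a, a lysosomal membrane protein (-0.49, adjusted p = 0.0232). Of 22 sorting genes 1 fell and 1 rose at day 3 and 0 passed at day 1: Igf2r, the receptor that carries new hydrolases to the lysosome, was at 541, 523 and 745 in GP and 342, 365 and 601 in treated cultures. Igf2r was lower in each preparation and fell by 0.50 ± 0.10 (adjusted p = 0.00473). Ap1m1, a subunit of the adaptor that packs it into vesicles, rose by 0.59 ± 0.13 (adjusted p = 0.00856).

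Of 15 regulators on the array 11 were tested. Tfeb and Mitf, with mean intensities of 7.49 and 13.6, were among those below the filter. Of the 11 tested 1 passed at day 3, Ppp3ca, the catalytic subunit of calcineurin, at 761, 615 and 557 in GP and 393, 305 and 352 in treated cultures. These values were far apart, and Ppp3ca fell by 0.87 ± 0.12 (adjusted p = 0.000649). Of 20 autophagy genes 2 fell at day 1, and 1 fell and 1 rose at day 3. Bnip3, a mitophagy receptor that is also induced by low oxygen, fell on both days, with changes of -1.91 ± 0.29 and -1.74 ± 0.29 (adjusted p = 0.00249 and 0.0019). Sqstm1, the cargo receptor p62, was at 964, 1192 and 1079.6 in GP and 736, 812 and 691 in treated cultures at day 1 and fell by 0.53 ± 0.09 (adjusted p = 0.00646). Atg7, an enzyme of autophagosome formation, rose by 0.68 ± 0.17 at day 3 (adjusted p = 0.0176). Cst3 fell by 0.45 ± 0.11 at day 1 (adjusted p = 0.0281), 1 of 2 tested inhibitors on each day. Without the block Naglu, Ppp3ca, Bnip3 and Cst3 kept their day 3 calls (adjusted p = 0.0266, 0.00754, 0.0465 and 0.0103), and Arsa, Igf2r, Ap1m1, Atg7 and all the day 1 calls did not.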

How the data were processed

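The authors deposited an intensity for each probe set on each of 15 arrays, on a linear scale as the values show; their software is not given in the sources used here. The arrays share a trimmed mean close to 150.0 per array. From these, 66 control probe sets were dropped, values under 2.8 (10th percentile) were raised to it, log2 was taken, and probe sets with a mean under 25.4 (40th percentile) were left out, leaving 7454. Group changes came from limma 3.58.1 (R 4.3.3; lmFit, then eBayes with a mean trend) over 5 groups with the preparation number as a block (8 residual degrees of freedom) and adjusted by Benjamini-Hochberg at 0.05. The method was tested on simulated data. The number of arrays limits the precision.

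The pairing comes from the preparation numbers in the labels, each of which holds all 5 groups. Deviations from group means correlated at 0.188 to 0.708 in 30 of 30 same-numbered pairs (median 0.43). Differently numbered pairs ran from -0.573 to 0.261 (median -0.32). The deviations within a group sum to 0, which by itself pushes such pairs below 0. Of these 60 pairs, 20 were positive, none of them with an array of preparation 3. The correlations thus set preparation 3 apart. Because the ranges overlap, they do not settle pairing by number among the other preparations. Names came from the platform annotation, and the Entrez identifiers of 46 genes matched RefSeq (GRCm38.p6) with 0 symbols changed.

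The members and lists were chosen with earlier results of these data known. Named genes were every member past the threshold in treated against GP cultures (up to 15 each way), up to 6 each way in other comparisons, a set named regardless (Ctsk, Ctsd, Ctsb, Ctsl, Lamp1, Lamp2, Cd63, Cd68, Psap, Grn and all Atp6v genes), and up to 4 called genes per related list by smallest p. Promoters shown were 3 with most CACGTG, ties by the smallest p in treated against GP cultures at day 3. Alternatives covered the block, floor, filter, scaling, mean trend, array weights, averaging of probe sets, the groups fitted and left-out arrays.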

Additional observations from a re-analysis of the deposited data

Results flagged for a closer look

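For Tpp1 the effect of treatment had opposite signs on the 2 days in every preparation: treated cultures were at 460.2, 529 and 381 against 583, 629.7 and 576 in GP at day 1, all lower, and at 826, 822 and 685 against 760.5, 796 and 596 at day 3, all higher. The changes were -0.40 and 0.12, and their difference was 0.52 ± 0.16 (limma, unadjusted p = 0.00523, adjusted p = 0.291), so it did not pass the threshold over all probe sets. Bri3 likewise was lower in treated cultures in all 3 preparations at day 1 (-0.25) and higher in all 3 at day 3 (0.07), a difference of 0.32 ± 0.13 (limma adjusted p = 0.49). For Ctsl the change from day 1 to day 3 was positive in all 3 preparations of GP (0.11) and negative in all 3 of treated cultures (-0.29), a difference of -0.40 ± 0.35 (limma adjusted p = 0.858). Opposite signs in 3 against 3 preparations also arise where changes are near 0.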

How the results depend on the processing

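The number of members past the threshold moved as follows. Without the replicate block it was 0, 0, 0 and 1 in place of 1 (treated against GP, day 1), 6 (day 3), 4 (GP over time) and 10 (treated over time). The day 1 count of 1 was 0 with no filter, median scaling or no mean trend, 3 with the floor at the 50th percentile or the filter at the 60th, 2 with probe sets averaged and 6 with array weights. Over all probe sets these fits gave 230 (of 12422), 256, 224, 309, 431 (of 4969), 372 and 794 calls, in that order. With the settings used above there were 371. The day 3 count of 6 was 3 with median scaling or no mean trend and 2 with only the groups compared (870, 889 and 747 calls over all probe sets). The GP time count of 4 was 2 with no mean trend or only the groups compared and 12 with array weights (101, 111 and 459 over all). The treated time count of 10 was 6 with the floor at the 50th percentile, no filter or no mean trend and 3 with only the groups compared. Over all probe sets the treated time calls were 233, 188 (of 12422), 201 and 84. Leaving out 1 array or 1 preparation gave 0 to 0 for treated against GP at day 1, 0 to 7 at day 3, 0 to 5 for GP over time and 0 to 10 for treated over time. Over all probe sets the same fits gave 35 to 273, 263 to 959, 29 to 172 and 0 to 267 calls, in that order. Medium day 0 to GP day 1 and the difference between the day 3 and day 1 effects stayed at 0 in every alternative.

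All 21 gene results past the threshold kept their direction in every alternative run. Of 40 that did not pass, these changed sign: Ctsl at day 1 (0.0035 with median scaling, 0.0067 with array weights), Atp6v1b2 at day 1 (0.012 with probe sets averaged), Atp6v1d at day 1 (-0.0052 with quantile normalization), and with array weights at day 3 Atp6v0a1 (-0.12), Atp6v0a2 (-0.065) and Atp6v1c1 (-0.044). With an array or preparation left out, treated against GP at day 1 ranged from -0.16 to 0.19 for Ctsl, -0.18 to 0.065 for Atp6v1b2, -0.030 to 0.14 for Atp6v0b, -0.025 to 0.13 for Atp6v0d1, -0.18 to 0.42 for Atp6v0e2, -0.019 to 0.27 for Atp6v1c1 and -0.085 to 0.14 for Atp6v1d. At day 3 it ranged from -0.096 to 0.38 for Ctsk, -0.18 to 0.16 for Atp6v0a1, -0.21 to 0.14 for Atp6v0a2, -0.012 to 0.17 for Atp6v0d1, -0.027 to 0.14 for Atp6v0e, -0.19 to 0.35 for Atp6v1c1 and -0.30 to 0.030 for Atp6v1d. The block changed no sign, and the cause of these shifts was not tested.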

Other observations

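Several genes outside the members, singled out after their values were seen, also rose from day 1 to day 3 in treated cultures, where 2.12% of all tested probe sets rose. Flcn, folliculin, and Rragc, a Rag GTPase, both act in the nutrient-sensing machinery on the lysosome surface. Flcn was at 103, 93.9 and 98.3 at day 1 and 184, 147 and 199.8 at day 3, without overlap, and rose by 0.84 ± 0.19 (limma adjusted p = 0.0262). Rragc was at 428, 510.5 and 585 and 712, 742 and 779.6, also apart, and rose by 0.56 ± 0.12 (adjusted p = 0.0194); these were 2 of 11 regulators tested. Sqstm1 went from 736, 812 and 691 to 1062, 1274 and 1253 and rose by 0.68 ± 0.09 (adjusted p = 0.00185, and 0.0462 without the block), the 1 call among 20 autophagy genes. Of 19 other lysosomal genes 2 rose: Laptm4a by 0.63 ± 0.11 and Ifi30, a lysosomal thiol reductase, by 0.99 ± 0.23 (adjusted p = 0.00744 and 0.0291). Without the block Sqstm1 alone of these passed. In GP alone 0 of these 5 genes passed, with changes of 0.58 for Flcn, 0.38 for Rragc, 0.28 for Sqstm1, 0.16 for Laptm4a and 0.47 for Ifi30.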
